A study of Mus musculus with 16 samples.

Results

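The replication-dependent histone genes encode the bulk of the protein that packages newly made DNA: the core histones H2A, H2B, H3 and H4, which form the nucleosome, and the linker histone H1, which binds the DNA between nucleosomes. They were taken here as the genes whose symbol begins with Hist1h, Hist2h, Hist3h or Hist4h, which gave 64 of 20409 genes with a symbol. By class these were 6 genes of H1, 16 of H2A, 18 of H2B, 11 of H3 and 13 of H4. In the RefSeq annotation of GRCm38.p6, the assembly of mm10, 52 lay in the Hist1 cluster on chromosome 13, 8 in Hist2 on chromosome 3, 3 in Hist3 on chromosome 11 and 1 on chromosome 6.

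These genes are transcribed mainly while DNA is replicated, in the S phase of the cell cycle. Their short mRNAs carry a conserved stem-loop at the 3' end in place of a poly(A) tail, and the stem-loop binding protein SLBP acts in their processing, translation and decay. In a dividing neural stem cell culture their RNA is therefore known as a marker of cells in S phase.

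Cytoplasmic RNA sequencing and ribosome profiling, which counts the mRNA fragments that ribosomes shield from nuclease (footprints), were carried out on cultured adult neural stem cells. The cells came from the dentate gyrus of FVB/N mice, all male and 8 to 10 weeks old. The mice were wild type (WT) or their Fmr1-/y littermates (KO), in which the gene of the RNA-binding protein FMRP is disrupted. All cultures were grown with EGF and FGF-2 at 20 ng/ml each, and all were treated for 10 min with 100 µg/ml of the elongation inhibitor cycloheximide. Each of 8 cultures (4 WT, 4 KO) gave 1 RNA and 1 footprint library from the same lysate, and the cultures came from separate cell isolations. The labels give the footprint libraries of replicates 1 and 2 a molecular identifier of 5 nt and those of replicates 3 and 4 one of 8 nt. The RNA libraries held 5343042 to 6600023 estimated counts, and the footprint libraries 9430732 to 17220236.

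The Fmr1 footprints were 129, 149.6, 149 and 149 CPM (counts scaled to library size) in WT and 24.1, 27, 12.7 and 14.7 CPM in KO, with no overlap. In RNA, Fmr1 stood at 40.8, 107, 37.2 and 27.4 CPM over WT cultures 1 to 4 and at 8.62, 30.8, 10.7 and 3.35 CPM over KO cultures 1 to 4, and KO 2 exceeded WT 4. The 16 markers of neural stem and progenitor cells summed to between 7912 and 12065 CPM of RNA per library. None of them was at 0 over all RNA libraries, but each RNA library except that of KO 4 had 1 marker at 0. Markers of neuroblasts and neurons summed to 287 to 972 CPM of RNA, and astrocyte markers to 1091 to 4276 CPM. For oligodendrocyte lineage markers the sums were 238 to 936 CPM. Microglial markers summed to at most 1.3 CPM of RNA, with Cx3cr1, Aif1 and Ptprc at 0, and endothelial and mural markers to at most 27.7 CPM. The culture WT 1 stood apart: its RNA library was the lowest of 8 for 59 of 59 histone genes tested in RNA, and its footprint library for 48 of 49 tested in footprints. Its genes of S phase and of G2 and mitosis, from lists chosen for this work, also summed to the lowest RNA value of 8 libraries, 2043 and 903 CPM, against maxima of 9059.7 and 6120.3 CPM. In such bulk libraries, fewer cells of a type and less RNA per cell cannot be told apart.

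The histone clusters are built of short genes packed closely, many of them in pairs that are transcribed away from each other. Of the members with a promoter entry in RefSeq, 9 pairs had starts that diverged within 500 bp, and each pair joined an H2A and an H2B gene, with 163 to 280 bp between the starts. The sequences below show 1 promoter each for H1, H3 and H4, the gene with the highest mean TPM (scaled by gene length) of its class, and the whole stretch between the starts of 2 such pairs. They are from RefSeq, GRCm38.p6, 5' to 3' on the strand of the named gene, and end at the base before its start. Capitals mark 4 motifs on either strand: CCAAT, the core promoter motif TATAAA, the octamer (ATTTGCAT) and the H1 box (AAACACA).
Hist1h1d: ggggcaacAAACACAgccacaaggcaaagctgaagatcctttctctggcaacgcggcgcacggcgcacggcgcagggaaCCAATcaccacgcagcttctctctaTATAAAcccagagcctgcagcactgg
Hist1h3e: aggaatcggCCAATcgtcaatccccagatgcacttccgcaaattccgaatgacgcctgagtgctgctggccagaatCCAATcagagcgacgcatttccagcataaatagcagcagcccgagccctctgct
Hist1h4d: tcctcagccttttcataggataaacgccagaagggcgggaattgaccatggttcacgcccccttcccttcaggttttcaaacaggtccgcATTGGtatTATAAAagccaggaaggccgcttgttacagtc
Hist1h2bg: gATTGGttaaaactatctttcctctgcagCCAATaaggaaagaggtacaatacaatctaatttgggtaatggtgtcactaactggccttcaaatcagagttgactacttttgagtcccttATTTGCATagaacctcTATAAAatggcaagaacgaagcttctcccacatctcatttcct
Hist1h2ao: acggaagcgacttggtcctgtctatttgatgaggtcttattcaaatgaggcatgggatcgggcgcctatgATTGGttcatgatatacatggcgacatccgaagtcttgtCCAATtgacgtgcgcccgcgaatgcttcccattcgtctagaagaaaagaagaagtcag
The whole set covers chr13:23554902-23555031 (plus strand) for Hist1h1d, chr13:23562386-23562515 (minus strand) for Hist1h3e and chr13:23581438-23581567 (plus strand) for Hist1h4d. The stretch of 179 bases at chr13:23571221-23571399 (plus strand) lies between Hist1h2ae and Hist1h2bg, and that of 167 bases at chr13:21810200-21810366 (plus strand) between Hist1h2bq and Hist1h2ao.

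CCAAT, the octamer and the H1 box were unevenly divided over the classes, and TATAAA occurred in all of them. Over the window from 250 bases before to 50 after the start, with both strands searched, CCAAT was present in 6 of 6 H1, 16 of 16 H2A, 15 of 15 H2B and 9 of 9 H3 promoters, and in 3 of 12 H4 promoters. It was present in 37.4% of all 32851 promoters in the table. The octamer, a motif bound by POU-domain factors, was found in 7 H2A and 6 H2B promoters and in 0 of the H1, H3 and H4 promoters, against 1.74% of all promoters. Since paired genes share their upstream sequence, the H2A and H2B counts partly read the same bases. The H1 box was in 5 of 6 H1 promoters, 2 H2A and 2 H2B promoters, 0 of the H3 and H4 promoters, and 7.18% of all. TATAAA was in 34 of 58 member promoters and 13.6% of all, with 4 of H1, 10 of H2A, 8 of H2B, 4 of H3 and 8 of H4. On the gene's own strand, its first base lay 20 to 40 bases before the start in 4 H1, 4 H2A, 1 H2B, 2 H3 and 1 H4 genes. A match is a description of sequence only.

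Summed over all members, histone RNA differed 7.29-fold between the lowest and the highest culture, and histone footprints 4.96-fold. The RNA sums, as CPM scaled by TMM within the assay, were 2941, 5729.8, 15985 and 21433 in WT cultures 1 to 4 and 8623, 7024, 17103 and 16643 in KO cultures 1 to 4. In both genotypes replicates 3 and 4 lay above replicates 1 and 2, with no overlap. Footprint sums were 2872, 8544, 9358 and 14256 CPM in WT and 7181, 8218, 10093 and 11855 CPM in KO, and replicates 3 and 4 again lay above 1 and 2. On the deposited TPM, which is per length, the members held 1.67% to 11.4% of the RNA and 0.747% to 3.07% of the footprints of a library.

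The class levels moved together over the cultures. H1 RNA stood at 1316, 1802, 4598 and 5735 CPM in the WT cultures and 2741, 2294, 4495 and 5237 CPM in the KO cultures. H4 RNA stood at 139, 297, 744 and 1230.0 CPM in the WT cultures and 445, 335, 1046 and 769 CPM in the KO cultures. For H2A the RNA sums ran from 546 to 5514 CPM, for H2B from 498 to 4239 CPM and for H3 from 442 to 4715 CPM, each lowest in WT 1 and highest in WT 4. H1 made up 31.4% to 44.7% of histone RNA counts in replicates 1 and 2, with the maximum in WT 1, and 26.3% to 31.5% in replicates 3 and 4.

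**Figure D1:**
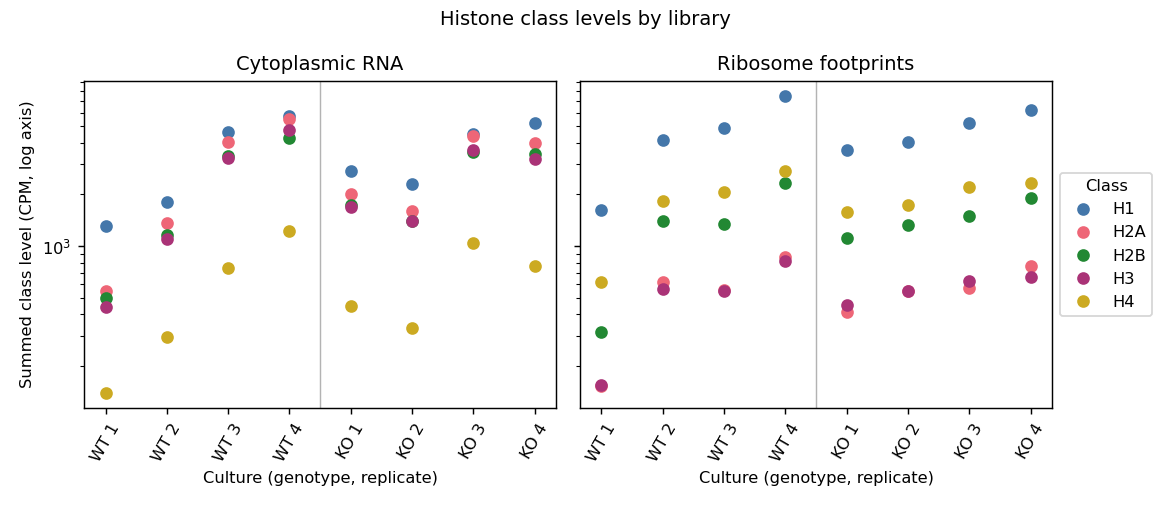
Summed level of each histone class in CPM (log axis) in RNA (left) and footprints (right), 1 point per class and culture, with WT left and KO right of the grey line. WT 1 is lowest in every class, H4 is the lowest class in RNA counts and H2A and H3 are the lowest in footprint counts; CPM are not per length.

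The share that a gene held of its class differed between RNA and footprints. Hist2h2bb (chr3:96269700-96270192) held 60.3% ± 3.38 (SD, n = 8) of H2B footprints and 14.8% ± 1.39 of H2B RNA. Hist1h3e (chr13:23561475-23562385) held 39.7% ± 6.22 of H3 footprints and 11.9% ± 2.48 of H3 RNA. Of H4, Hist1h4d (chr13:23581568-23581969) held 26.6% ± 1.89 of footprints and 17.9% ± 2.23 of RNA, and Hist2h4 (chr3:96262934-96263317) 18.8% ± 2.27 and 8.38% ± 0.776. Among H2A genes, Hist1h2ak (chr13:21753377-21753912) held 29.3% ± 2.72 of footprints and 15.6% ± 1.38 of RNA, and Hist3h2a 27.6% ± 5.23 and 1.25% ± 0.419. The H1 genes differ more in sequence from each other: Hist1h1d (chr13:23555032-23555807) held 23.3% ± 2.72 of H1 footprints and 30.1% ± 3.67 of H1 RNA, and Hist1h1e (chr13:23621777-23622558) 18.1% ± 2.56 and 30.4% ± 3.58. Hist1h1b held 23.3% ± 3.89 and 9.38% ± 1.69, so that H1 footprints were spread more evenly over the genes than H1 RNA. Copies of 1 core histone are nearly identical in coding sequence, so the authors' counting could split their reads, and single-gene values of H2A, H2B, H3 and H4 are uncertain.

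A group of 10 members had 2518 to 26668 RNA counts over 8 libraries and at most 4 footprints over 8 libraries, together 18.1% of histone RNA counts. At 0 footprints in every library were Hist1h2ao, Hist1h2ad, Hist1h2ag, Hist1h2bn, Hist1h2bc, Hist1h4m and Hist1h4n. For Hist1h2ao, with 16060 RNA counts, the footprint share of the library was at least 10782-fold lower than the RNA share, taking 3 counts over all footprint libraries as the floor. That bound was 6322 for Hist1h2ad, 5983 for Hist1h2bn and 1691 for Hist1h4m. Hist2h2aa2 (chr3:96239779-96240374), with 26668 RNA counts the gene with most H2A RNA, had 1 footprint, a ratio of 53713 (95% exact binomial interval 9639.6 to 2121630). Hist2h3c1 and Hist2h3b had 4 and 3 footprints against 17918 and 8960 RNA counts. These floors and intervals cover counting error only.

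Some of these genes also kept a fixed proportion to each other in RNA. Hist1h4m and Hist1h4n had identical counts in all 16 libraries. Hist1h2ag had between 0.5 and 0.502 of the count of Hist1h2ao in each RNA library, and Hist2h3b between 0.5 and 0.502 of that of Hist2h3c1. The 2 values of such a pair are not separate measurements. Conversely, Hist2h2be had 63 RNA counts and 637 footprints and Hist4h4 352 and 15486. Hist1h2ah was at 0 in every library of both assays, and the germline genes Hist1h1t, Hist1h2aa and Hist1h2ba, known from testis, had 13, 1 and 37 RNA counts in all. The cause of these zeros was not tested.

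**Figure D2:**
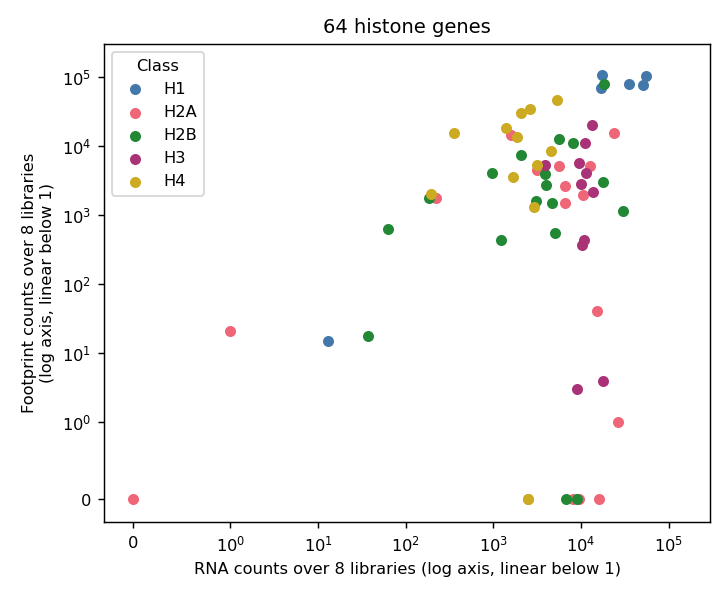
Total RNA counts (x) and total footprint counts (y) of the 64 histone genes over 8 libraries each, both on log axes that are linear below 1, coloured by class. Genes along the bottom at high RNA counts are those at 0 to 4 footprints, and Hist1h2ah sits at the origin.

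Footprints relative to RNA differed by class. The ratio of summed footprint CPM to summed RNA CPM per culture was 3.69 ± 1.46 for H4 (mean ± SD, n = 8 cultures), 1.42 ± 0.415 for H1, 0.666 ± 0.271 for H2B, 0.281 ± 0.127 for H3 and 0.238 ± 0.114 for H2A. In WT 1 to 4 and KO 1 to 4 the H4 ratio was 4.46, 6.16, 2.78, 2.23, 3.54, 5.21, 2.1 and 3.05, and the H2A ratio 0.281, 0.453, 0.138, 0.156, 0.208, 0.344, 0.13 and 0.192. The 2 classes did not overlap. With the members of at most 10 footprints left out of the sums, an alternative added after seeing the data, the mean log2 ratio of H2A was -1.42 in place of -2.21, and that of all members 0.02 in place of -0.26.

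The level of this ratio depended on the unit. From the deposited TPM the ratio was 0.937 ± 0.302 for H4, 0.909 ± 0.19 for H1, 0.27 ± 0.0863 for H2B, 0.119 ± 0.0448 for H3 and 0.0942 ± 0.0375 for H2A. H4 and H1 thus overlapped on TPM, while H2B, H3 and H2A stayed below them. The authors' length term, the count that corresponds to 1 TPM, was for the median H4 gene 0.061 of that of the median gene in RNA and 0.224 in footprints, and for the median H1 gene 0.397 and 0.573. The genes are short, with a median span of 406 bp in H4 and 760.5 bp in H1, and the labels give 300 bp as the target size of the RNA fragments. The preparation of the 2 kinds of library and translation cannot be told apart in this ratio.

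**Figure D3:**
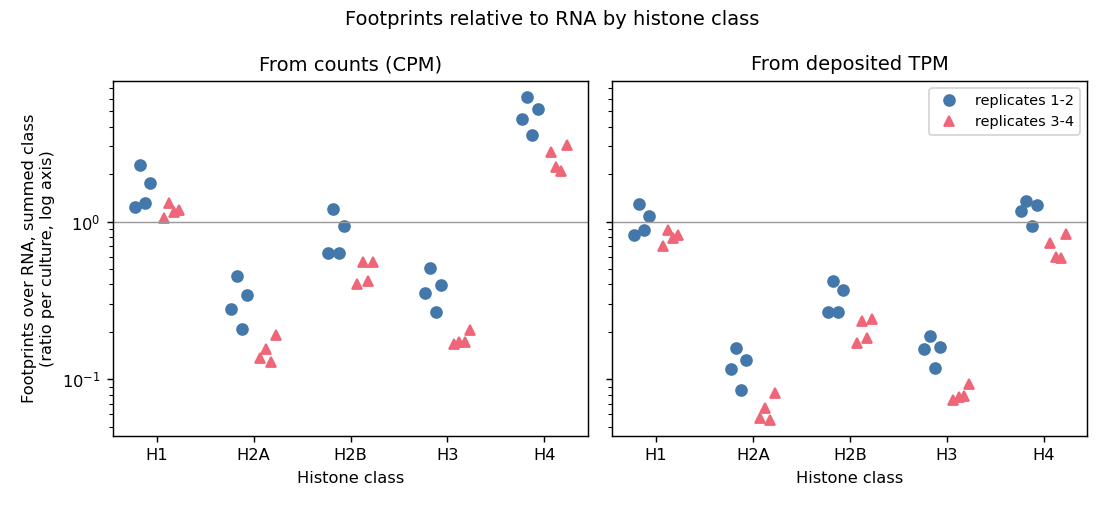
Ratio of footprints to RNA of each summed class in 8 cultures (log axis; the line marks 1), from counts (left) and from deposited TPM (right), with circles for replicates 1-2 and triangles for 3-4. H4 lies above 1 in every culture from counts and around 1 from TPM, and replicates 3-4 lie below 1-2 in both units for H2A, H2B, H3 and H4.

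Gene by gene, with the culture as a block, 20 of 48 members tested had a higher footprint than RNA share and 22 a lower one (edgeR quasi-likelihood test, Benjamini-Hochberg adjusted p under 0.05). Over all 10863 genes tested, 41.7% were higher and 39% lower, so that members were called about as often as other genes. By class, 9 of 11 H4 genes were higher and 1 lower, with a median log2 fold change of 2.55. Of H1, 4 of 5 were higher (median 0.50). Of H2A, 2 of 9 were higher and 6 lower (median -1.11), of H2B 5 and 8 of 14 (median -0.85), and of H3 0 and 7 of 9 (median -2.02). The median over all genes tested was 0.04. Members without enough footprints or RNA to be tested are not in these counts, so each class is described by what remained. Members of at most 10 footprints held 41.2% of H2A, 22.2% of H3, 16.2% of H4 and 13% of H2B RNA counts. The H4 counts thus leave out Hist1h4m and Hist1h4n, and those of H3 leave out Hist2h3c1 and Hist2h3b. On counts, a gene's direction here includes the difference in length term.

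The largest differences were in opposite classes. Hist4h4 (chr6:136803993-136804431), the H4 gene on chromosome 6, had RNA of 2.35, 2.92, 11.5 and 11.1 CPM in WT and 5.58, 4.31, 9.42 and 9.58 CPM in KO. Its footprints were 81.1, 145, 202 and 240.1 CPM in WT and 114, 158, 154 and 219 CPM in KO. The assays did not overlap, with a log2 difference of 4.80 (SE 0.17, adjusted p = 1.45e-10). Hist1h4f and Hist1h4h followed, at 3.29 (SE 0.20) and 3.19 (SE 0.26). Hist1h3b (chr13:23752345-23752840), an H3 gene, had RNA of 31, 92.1, 258 and 446 CPM in WT and 163, 127, 290.1 and 260.0 CPM in KO. Its footprints were 0.726, 3.65, 4.06 and 6.27 CPM in WT and 3.59, 4.22, 5.01 and 3.8 CPM in KO, and its log2 difference was -5.38 (SE 0.18, adjusted p = 1.17e-10). Next to it were Hist1h2bq (chr13:21806412-21810199), at -5.36 (SE 0.30), and Hist1h3h, at -5.25 (SE 0.14). The H1 genes Hist1h1d and Hist1h1e had small differences, 0.28 (SE 0.12, adjusted p = 0.0466) and -0.10 (SE 0.11, adjusted p = 0.448), whereas Hist1h1b and Hist1h1a had 1.97 (SE 0.14) and 1.54 (SE 0.15).

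Loss of Fmr1 was not accompanied by a called change in any member. With edgeR, 0 members were higher and 0 lower of 59 tested in RNA, where 0.00901% of 11097 genes were called. In footprints 0 of 49 members passed (background 0.0349%), and in footprints relative to RNA 0 of 48 (background 0%). At an unadjusted p under 0.05 the counts of members were also 0 in each of the 3 comparisons, and DESeq2, and for RNA and footprints limma on TPM, called 0 as well. Over all genes tested, the unadjusted edgeR counts were 89 higher and 119 lower in RNA and 236 and 291 in footprints. In footprints relative to RNA they were 7 and 7. The median log2 fold change, KO over WT, was 0.10 in RNA (46 of 59 above 0), 0.20 in footprints and 0.10 in footprints relative to RNA, against 0.01, 0.01 and 0.01 over all genes tested. The standard errors were wide, 0.38 to 1.34 in RNA and 0.17 to 1.53 in footprints. Changes of that size were not detectable, and an SE is not a detection limit, so larger changes could be missed too.

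The direction of these small differences turned with the cultures. Histone RNA averaged 11522 ± 8667 CPM in WT and 12348 ± 5269 CPM in KO (n = 4), and the KO range lay inside the WT range. Within replicates 1 and 2 the median member log2 fold change in RNA was 0.88, and within replicates 3 and 4 it was -0.16. In footprints these medians were 0.45 and -0.09, and in footprints relative to RNA -0.34 and -0.00203. Without WT replicate 1, the library with the least histone RNA, the medians were -0.23 in RNA and -0.13 in footprints. The H1 gene Hist1h1d is an example, with RNA of 288, 540.3, 1485 and 1815 CPM in WT and 789.7, 696, 1510.4 and 1704 CPM in KO. KO lay above WT in replicates 1 and 2, at about the WT level in 3 and below it in 4, and the log2 fold change was 0.19 (SE 0.56). Hist1h1d footprints, 299, 989, 1172 and 1830.0 CPM in WT and 729, 955, 1367 and 1595 CPM in KO, gave 0.18 (SE 0.35). At the ends of the RNA range stood Hist1h4i, -0.52 (SE 0.66), and Hist3h2ba, 0.67 (SE 1.34).

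Replicates 3 and 4 held more histone RNA than replicates 1 and 2, with a ratio of geometric means of 4.51 in WT and 2.17 in KO (n = 2 cultures on each side, with no test), and of 3.13 over all 8 cultures. With genotype in the model, 53 of 59 members were higher in replicates 3 and 4 and 0 lower (edgeR adjusted p under 0.05), where 12.1% of all genes tested were higher and 13.1% lower. The median log2 fold change of members was 1.71, against -0.03 for all genes. For 53 of 59 members all 4 values of replicates 3 and 4 lay above those of 1 and 2, as for 16.6% of all genes. Each class was affected: 5 of 5 H1, 12 of 14 H2A, 13 of 16 H2B, 11 of 11 H3 and 12 of 13 H4 genes rose. Over the omission of each culture the count was 43 to 54. Members that share reads or keep a fixed proportion are counted here as separate genes, so these counts are not of independent measurements. The cultures and the identifier length of their footprint libraries cannot be told apart in this contrast, which the labels define only for the footprint libraries.

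Hist1h4j had the largest rise, 2.18 (SE 0.37, adjusted p = 0.00915), with RNA of 7.45, 11, 43.5 and 77.1 CPM in WT 1 to 4 and 8.96, 21.4, 44.5 and 53.2 CPM in KO 1 to 4. Hist1h1a (chr13:23763668-23764412), an H1 gene, had 2.06 (SE 0.33, adjusted p = 0.00847), and RNA of 52.4, 125, 519 and 577 CPM in WT and 203, 167, 471 and 573 CPM in KO. In both genes replicates 3 and 4 were above 1 and 2 in each genotype. The H2A gene Hist1h2an had 2.02 (SE 0.38), and the most abundant genes rose by similar amounts: Hist2h2bb 1.79 (SE 0.36), Hist1h2ak 1.92 (SE 0.38), Hist1h3e 1.61 (SE 0.27), Hist1h4d 1.50 (SE 0.30) and Hist1h1e 1.12 (SE 0.19). Genes at 0 or few footprints rose in RNA likewise, with Hist2h2aa2 at 1.53 (SE 0.28) and Hist2h3c1 at 1.82 (SE 0.40). The 2 genes of the Hist1h2ae and Hist1h2bg pair, whose shared upstream sequence is printed above, had 1.88 (SE 0.39) and 1.58 (SE 0.26), and those of the Hist1h2bq and Hist1h2ao pair 1.62 (SE 0.29) and 1.94 (SE 0.33).

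The shift in footprints was smaller. Of 49 members, 1, Hist1h2be, was called higher in replicates 3 and 4 (background 7.56% higher and 11.5% lower), and 0 lower. The median was 0.71, 46 of 49 lay above 0, and for 21 of 49 the 2 sets of replicates did not overlap, against 15.6% of all genes. At an unadjusted p under 0.05 in this edgeR fit, 13 of 49 members were higher, as were 1996 of all 11472 genes tested. DESeq2 called 9 members, edgeR 8 without WT replicate 1, 3 without WT replicate 2 and 0 without any one of the other 6 cultures. Hist1h2be footprints were 3.56, 12, 21.1 and 33.1 CPM in WT and 10.3, 9.38, 23.7 and 22 CPM in KO, 1.50 (SE 0.36, adjusted p = 0.0297), with replicates 3 and 4 above 1 and 2.

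Relative to RNA, footprints of 26 of 48 members were called lower in replicates 3 and 4 and 0 higher, in a model with the culture as a block, where 2.83% of all genes tested were lower and 4.46% higher. The median was -0.85, against -0.00127 for all genes, and 47 of 48 members lay below 0. By class 1 of 5 H1, 5 of 9 H2A, 10 of 14 H2B, 5 of 9 H3 and 5 of 11 H4 genes fell. The calls rest on the full set of cultures: 0 were called without WT replicate 2, WT replicate 4, KO replicate 2, KO replicate 3 or KO replicate 4, 9 without WT replicate 3, 25 without WT replicate 1 and 41 without KO replicate 1, while the median stayed between -1.12 and -0.69. Class sums showed the same without a test: the ratio for all members was 0.977, 1.49, 0.585, 0.665, 0.833, 1.17, 0.59 and 0.712 in WT 1 to 4 and KO 1 to 4, lower in replicates 3 and 4 with no overlap. On TPM the log2 difference between replicates 3-4 and 1-2 was -0.75, against -0.78 on CPM.

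The largest called fall was in the H2B gene Hist1h2bp, -1.61 (SE 0.27, adjusted p = 0.0257). Its RNA stood at 53.1, 168, 528 and 584 CPM in the WT cultures and 238, 202, 507 and 556 CPM in the KO cultures, and its footprints 7.98, 41.9, 28.8 and 33.2 and 22.3, 46.1, 31.9 and 27 CPM. RNA was higher in replicates 3 and 4, while footprints overlapped between replicates 3-4 and 1-2. Hist1h4h and Hist1h2bg had -1.43 (SE 0.27) and -1.43 (SE 0.23). The H1 genes changed least in this measure, with a median of -0.50 and Hist1h1a the one called, -0.79 (SE 0.17, adjusted p = 0.035); the difference between classes was not tested. Hist1h2be, the gene with the called footprint rise, had 0.14 (SE 0.23).

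**Figure D4:**
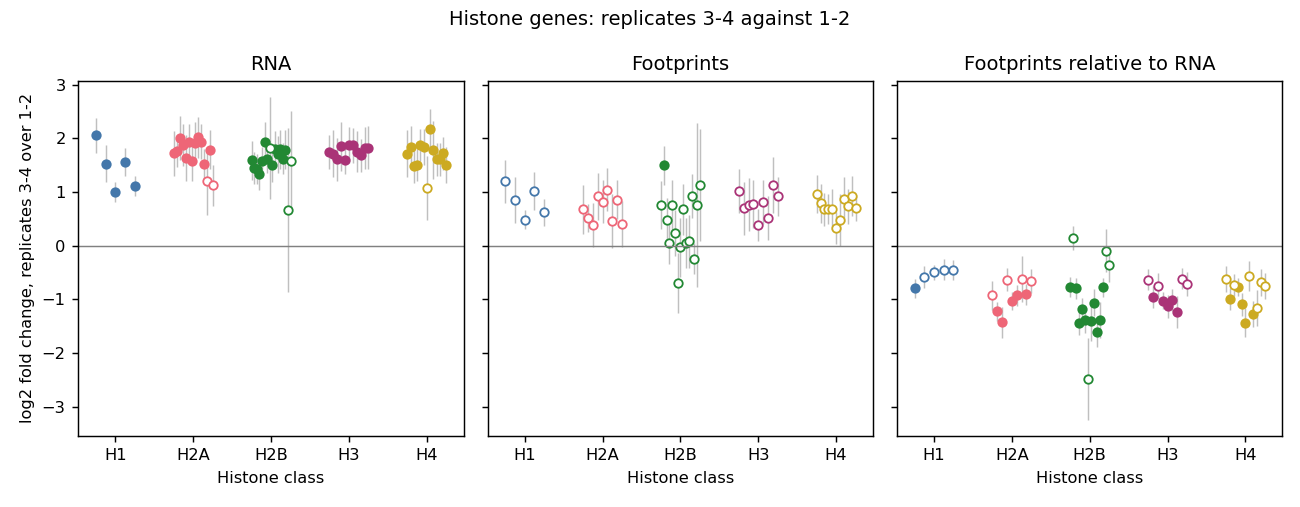
log2 fold change of replicates 3-4 over 1-2 for each histone gene tested, by class, in RNA (left), footprints (middle) and footprints relative to RNA (right). Bars are SE, filled points passed adjusted p under 0.05 and open points did not; RNA values lie above 0 throughout, with 53 of 59 filled.

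The 3 genes of the Hist3 cluster followed the cultures in another way. Hist3h2ba (chr11:58948911-58949372), an H2B gene, had 0, 471, 1.0 and 300 footprint counts in WT 1 to 4 and 85, 235, 57 and 629 in KO 1 to 4. Hist3h2bb-ps (chr11:58954048-58954512), a pseudogene by its symbol, had 12, 682, 85 and 907 in WT and 329, 556, 288 and 1165 in KO. In footprints both were higher in replicates 2 and 4 than in 1 and 3 in each genotype. That split did not hold for Hist3h2bb-ps RNA in KO, where replicate 3 lay above replicate 2. In RNA, Hist3h2bb-ps stood at 1.37, 17, 1.81 and 43.3 CPM in the WT cultures and 8.11, 10.8, 15.8 and 54.8 CPM in the KO cultures, and Hist3h2ba 0, 7.67, 0 and 3.28 and 0.845, 1.66, 1.3 and 13.8 CPM. Hist3h2a (chr11:58954685-58955192), the H2A gene beside them, had footprints of 53.1, 195, 107 and 225 CPM in WT and 111, 163, 123 and 238 CPM in KO. These too were higher in replicates 2 and 4 than in 1 and 3 in each genotype, with a smaller relative range. None of the 3 passed in a comparison of genotypes or replicate sets. Each was higher in footprints than in RNA, Hist3h2ba by 2.74 (SE 0.20), Hist3h2a by 2.50 (SE 0.16) and Hist3h2bb-ps by 1.48 (SE 0.18) on the log2 scale.

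**Figure D5:**
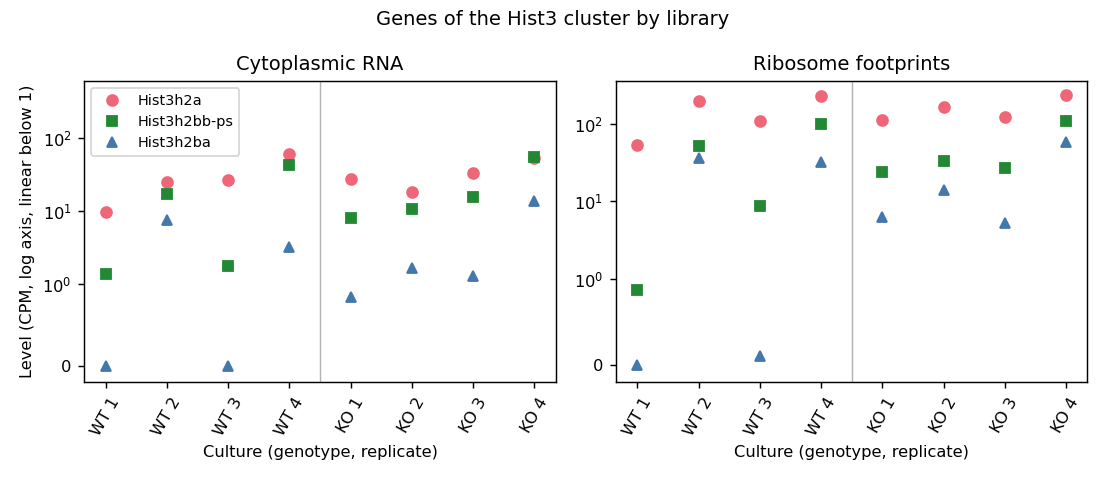
Level in CPM (log axis, linear below 1) of the 3 Hist3 genes in RNA (left) and footprints (right) in each culture, WT left and KO right of the grey line. Hist3h2ba and Hist3h2bb-ps are lowest in WT 1 and WT 3 and highest in WT 2, WT 4 and KO 4 in footprints.

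In the Hist2 cluster, Hist2h2ac had RNA of 10.4, 33.3, 91.9 and 123 CPM in WT and 39.6, 32.1, 87.1 and 90 CPM in KO, and a footprint to RNA difference of -0.02 (SE 0.17). Hist2h2ab, its neighbour, was lower in RNA, at 0.784, 1.84, 4.12 and 9.69 CPM in WT and 6.76, 2.32, 5.36 and 5.02 CPM in KO, with a difference of 2.33 (SE 0.23). Hist2h4 and Hist2h2bb, among the most abundant members, had 3.13 (SE 0.17) and 1.54 (SE 0.15). Hist2h2bb footprints were 189.8, 767, 876 and 1438 CPM in WT and 652, 755, 952 and 1155 CPM in KO, lowest in WT 1 and highest in WT 4.

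Histone variants listed here as independent of DNA replication, H2afx among them, had a smaller median change, in a comparison of lists that was not tested. Of 11 such genes tested, 4 rose in the RNA of replicates 3 and 4 and 0 fell (background 12.1% higher and 13.1% lower). Their median was 0.60. Without WT replicate 3, WT replicate 4, KO replicate 2 or KO replicate 4 the count called was 1. H2afx, which marks DNA breaks once phosphorylated and is known to yield a stem-loop transcript too, had 1.72 (SE 0.36) in RNA and -1.14 (SE 0.18) in footprints relative to RNA, and passed in both. H2afz, the gene of H2A.Z, had 0.97 (SE 0.29), and Cenpa, the centromeric H3, 1.04 (SE 0.30), both called. H3f3b, a gene of H3.3, had -0.20 (SE 0.16) and was not. Of 11 variants, 10 had a higher footprint than RNA share and 0 a lower one (background 41.7% higher and 39% lower). The median of this difference was 0.91, and H2afj had 2.51 (SE 0.12). As for the members, its direction on counts includes the difference in length term.

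Genes of histone mRNA processing were compared between replicates 3-4 and 1-2 as well. In RNA 3 of 25 rose and 1 fell (median 0.20), where 12.1% of all genes tested were higher and 13.1% lower. The share that rose was thus about that of all genes. In either direction 1 was called without WT replicate 4 or KO replicate 2, 2 without KO replicate 4 and 6 without KO replicate 1, and DESeq2 called 7. Slbp, whose product binds the histone stem-loop, had 0.40 (SE 0.22) in RNA and 0.62 (SE 0.24) in footprints, and passed in neither. Snrpf and Snrpb, of the Sm proteins of spliceosomal and U7 particles, had 1.22 (SE 0.30) and 0.80 (SE 0.18) in RNA, both called. Zcchc6, a terminal uridylyltransferase, fell by 1.11 on the log2 scale (SE 0.18). Of the histone chaperones, which carry histones to DNA, 6 of 25 rose in RNA and 0 fell. Among the 6 were Asf1b at 1.59 (SE 0.47) and Chaf1b at 1.24 (SE 0.37). In footprints 8 of 25 chaperones rose and 0 fell, where 7.56% of all genes tested were higher and 11.5% lower. These calls depended on single cultures. In RNA 0 chaperones were called without WT replicate 4, 1 without WT replicate 3, KO replicate 2 or KO replicate 4 and 2 without KO replicate 3. In footprints 0 were called without WT replicate 3, WT replicate 4 or KO replicate 2, 1 without KO replicate 4 and 3 without KO replicate 1 or KO replicate 3, and DESeq2 called 13. Npm1 and Set, the most abundant, had 0.79 (SE 0.19) and 0.72 (SE 0.13) in footprints, both called.

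Genes of DNA replication also rose in RNA, with a smaller median there than the histones. In RNA 25 of 49 S phase genes rose in replicates 3 and 4 and 0 fell (background 12.1% higher and 13.1% lower). Their median was 0.97. The count was 10 without WT replicate 4, 11 without KO replicate 2 and 14 without WT replicate 3. Ccne1, which encodes cyclin E1, had 1.53 (SE 0.25) and Mcm5, of the replicative helicase, 1.47 (SE 0.40). Pcna and Rrm2, the most abundant of the list, had 0.65 (SE 0.27) and 0.77 (SE 0.40) and did not pass. The S phase list summed to 2043 to 5787 CPM in replicates 1 and 2 and 7156 to 9059.7 CPM in 3 and 4. Histone RNA divided by this sum was 1.16 to 1.49 in replicates 1 and 2 and 2.05 to 2.37 in 3 and 4, with no overlap. The same ratio in footprints was 1.06 to 1.3 and 1.09 to 1.56, and overlapped. In footprints 4 of 49 S phase genes were called higher and 0 lower (background 7.56% higher and 11.5% lower). That share called higher was near that of all genes. However, 49 of 49 lay above 0, with a median of 0.76, against 0.71 for the histone members and 0.0011 for all genes. At an unadjusted p under 0.05 in this edgeR fit, 27 of 49 were higher, as were 1996 of all 11472 genes tested. DESeq2 called 21, edgeR 21 without WT replicate 1, 9 without WT replicate 2 and 2 or fewer without any one of the others.

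In RNA, genes of G2 and mitosis counted 2 of 28 higher, 0 lower (background 12.1% higher and 13.1% lower) and a median of 0.01. The count called was 9 without WT replicate 1, 0 without WT replicate 2, WT replicate 3, WT replicate 4, KO replicate 2 or KO replicate 4, and 6 with DESeq2. Plk1, a mitotic kinase, had 1.29 (SE 0.36) and was called, and Cdk1, the kinase that starts mitosis, had 1.04 (SE 0.38) and was not. Markers of glia and of other cell types differed between replicates 3-4 and 1-2 as well. Of the astrocyte markers, 7 of 9 fell in the RNA of replicates 3 and 4, where they summed to 1091 to 2083 CPM, against 2147 to 4276 CPM in 1 and 2. Of the oligodendrocyte lineage markers 3 of 5 fell, and of the neural stem and progenitor markers 4 of 15 fell and 1 rose. Of the neuroblast and neuron markers 2 of 5 fell and 0 rose, with a median of -0.73, and 1 to 3 were called over the omission of each culture. Without WT replicate 4 the counts called were 3 astrocyte, 2 oligodendrocyte lineage and 2 stem and progenitor markers, and without WT replicate 3 they were 4, 2 and 3. The part of these cell types in the histone difference was not tested.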

How the data were processed

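Cytoplasmic RNA and ribosome footprints of 8 cultures were measured in 16 libraries. The authors deposited estimated counts per gene from RSEM, as whole numbers. They also deposited TPM rounded to whole numbers, which is handled here as a score. Of tools, the submitters' processing notes list RSEM 1.2.11, TopHat2 2.0.9, Bowtie2 2.1.0 and cutadapt 1.7.1 with no role, and the build mm10. How strand and the identifiers were used is not given in the sources used here. In general RSEM estimates how reads matching several genes divide, which bears on near-identical histones.

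Of 20436 rows, 27 held a bare number in place of a symbol (0.244% to 0.422% of a library's counts) and were left out. The test was that of edgeR 4.0.16 in R 4.3.3, with TMM, filterByExpr by genotype, quasi-likelihood F-tests, two-sided, Benjamini-Hochberg adjustment over all genes tested, threshold 0.05. Of the 64 members 59 entered the RNA fit, 49 the footprint fit and 48 the joint fits. RNA was fitted by genotype, footprints by genotype and identifier length, and footprints relative to RNA as an interaction over 16 libraries; footprints against RNA, and that ratio between replicates 3-4 and 1-2, had the culture as a block. The SE comes from the F statistic. Class sums are counts summed per class, as CPM scaled within the assay, with no test. Length terms used genes of at least 20 TPM and 20 counts. The fits were also run on simulated counts with the same dispersion for every gene. Those counts had no differences between cultures and no shared reads, so that check does not cover these features of the data. The motifs, the promoters shown, the limit of 10 footprints and the tolerance of 1.05 for fixed ratios were chosen after seeing the data. The authors' own comparison table was not analysed here. Alternatives used DESeq2 1.42.0, limma 3.58.1, other scalings and filters, and omission of each culture.

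The members, gene lists, tests and alternatives were chosen with earlier results of these data known. Genes were named by a rule: per class the 2 with the highest mean TPM, per comparison and direction the 3 called members with the largest change, tested members outside Hist1, members at 0 throughout, and from other lists the 2 most abundant, called genes and Slbp. Further members named (Hist1h1b, Hist1h4i, Hist1h2bk, the germline genes, and those with few footprints, in pairs or at an end of a range) were chosen after their values were seen. Same-numbered WT and KO libraries deviated together from their group means (r = 0.391 to 0.62), over 0.1 in each pair, so the numbers, from the titles, were taken to pair the samples. Different numbers within replicates 1-2 or 3-4 also correlated, with r of 0.04 to 0.456, the highest of them, in footprints, above the lowest same-numbered value, and no source used here ties a number to a shared animal or day. All 64 symbols matched RefSeq (GRCm38.p6), and 58 had a promoter entry; Hist1h2bc, Hist3h2bb-ps, Hist2h2be, Hist1h3f, Hist1h3a and Hist2h4 had none.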

Additional observations from a re-analysis of the deposited data

Results flagged for a closer look

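Both H2B genes of the Hist3 cluster stood far from the other libraries of their group in KO replicate 4, in both assays. Hist3h2bb-ps was at 54.8 CPM in that RNA library, against 8.11 to 15.8 CPM in KO 1 to 3, and at 108 CPM in its footprints, against 24.1 to 33 CPM. Hist3h2ba was at 13.8 CPM in RNA, against 0.845 to 1.66 CPM, and at 58.2 CPM in footprints, against 5.29 to 14 CPM. Hist2h2aa2 in WT 3 footprints (0.101 CPM) and Hist2h3b in WT 4 footprints (0.108 CPM) each stood apart from 0 in the other WT libraries by a single footprint. Of 152 groups of 4 values examined, 6 held such a value, and chance alone gives about 1 in 20.

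The KO over WT difference ran in opposite directions in the 2 sets of replicates for 3 of 18 class measures; the difference between replicates 3-4 and 1-2 was not tested. For H1 RNA the log2 values of pairs 1 to 4 were 1.06, 0.35, -0.0327 and -0.13. The H3 footprint to RNA ratio gave -0.39, -0.37, 0.0308 and 0.25, and the ratio of all members -0.23, -0.35, 0.0116 and 0.0988. These 3 measures share libraries, and the number that chance alone would give was not worked out.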

How the results depend on the processing

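A fit with a replicate block gave a median member log2 fold change of KO over WT of 0.39 in RNA, 0.34 in footprints and -0.06 in footprints relative to RNA, and the pairing changed no call of a member. With genotype in place of the culture as a block, 14 members were higher and 19 lower in footprints than RNA. Within WT cultures 13 were higher, with fewer samples and genes tested. The fits within replicates 1 and 2 or 3 and 4 and the alternatives to the class sums from TPM or without members of few footprints were chosen after seeing the data. In no alternative was a member called between genotypes; over the omission of each culture the medians ran from -0.23 to 0.61 in RNA, -0.13 to 0.58 in footprints and -0.22 to 0.71 in their ratio. Between replicates 3-4 and 1-2, omissions gave 0 to 8 members higher in footprints (DESeq2 9) and 0 to 41 lower relative to RNA. From TPM, the mean log2 footprint to RNA ratio was -0.16 for H1 and -0.16 for H4, both above 0 on CPM, -3.51 for H2A, -1.95 for H2B, -3.17 for H3 and -1.54 for all. Leaving out members of at most 10 footprints gave -1.42 for H2A and 0.016 for all.

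Single members that were not called changed sign; the cause was not tested. Hist1h4i (KO over WT) had -0.84 to 0.56 in RNA over omissions, above 0 without WT replicate 4, and 0.49 within replicates 1 and 2. In footprints Hist1h4i ran from -0.45 to 0.36 over omissions, and was 0.0556 with the replicate block, 0.0906 with limma at a pseudocount of 1 and 0.0929 at 0.5, and 0.13 within replicates 1 and 2. Hist3h2ba RNA was -1.11 to 1.96 over omissions, below 0 without KO replicate 4, and -1.65 within replicates 1 and 2. Relative to RNA, Hist3h2ba was -0.87 to 0.24 over omissions, above 0 without WT replicate 2, 0.79 with the block and 0.82 within replicates 1 and 2, and Hist1h2bk -0.0648 with the culture as a block and -1.87 within replicates 1 and 2. Between replicates 3-4 and 1-2, omissions gave -0.75 to 2.93 for Hist3h2ba RNA (below 0 without KO replicate 1 or KO replicate 4), -0.98 to 0.0209 for Hist1h2bk footprints (above 0 without WT replicate 2) and -0.0326 to 0.33 for Hist1h2be relative to RNA (below 0 without WT replicate 4).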
